A study of Mus musculus with 90 samples.

Results

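The frontal cortex of resident male mice was compared 120 min after a social challenge, in 6 animals that had met an intruder and 6 that had not. These 12 libraries, chosen by region, time and condition as the labels give them, are part of 90 in the series. All residents were C57BL/6J males, made territorial by a period of living with a female who was taken out of the cage on the day of the trial. An exposed resident faced an unfamiliar BALB/cJ male behind wire mesh for 5 min. A control resident faced the same cage holding a paper cup. Both groups then sat in the dark and quiet for 120 min before cervical dislocation and dissection of the region. An intruder library is, in what follows, a library of an exposed resident. The labels name 1 animal for each library, while the study's design text says that RNA samples were pooled to make libraries, so how far a library stands for a single animal is not settled by the sources. The whole dissected region was sequenced, so fewer cells of a type and less RNA per cell cannot be told apart. The animals' ages are not given in the sources used here.

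Proteins that have lost or not yet reached their fold are held by chaperones. In the cytosol these are the heat shock proteins, whose genes are driven by heat shock factor 1 when unfolded protein builds up. In the endoplasmic reticulum, where secreted and membrane proteins fold, BiP (encoded by Hspa5) and its partners do the same work, and their genes are driven by the unfolded protein response. In neurons the immediate-early genes, such as Fos and Arc, are transcribed within minutes of strong activity and their transcripts are short-lived, so the later time studied here falls after the usual peak of that wave.

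Control libraries held 38.6 to 53.79 M reads in genes and intruder libraries 46.55 to 58.86 M. None of 7 library measures (depth, genes with a read, and the shares of unassigned, ambiguous, multiply aligned and mitochondrial reads and of the 100 strongest genes) had an exact two-sided permutation p below 0.143 over the 924 groupings of 6 against 6 libraries. Markers of excitatory cortical neurons were detected in every library. The 17 markers summed to between 2370 and 2830 CPM (counts scaled to a common library size) in controls. In intruder libraries they summed to between 2060, in library 1, and 2700. Intruder library 1 stood apart from the other 11 on the first principal component (-43.4 against -11.5 to 19.7; 26.4% of the variance) and had higher levels of marker genes of other brain tissues, described further on; the source of these transcripts was not tested. All control libraries share 1 leading sequencing index and all intruder libraries another, so index and condition cannot be told apart. The 2 groups shared 4 second indices.

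No gene was called different at 120 min. Of 17091 genes tested with edgeR's quasi-likelihood test, 0 had a Benjamini-Hochberg adjusted p below 0.05 (0%), and the smallest adjusted p was 0.4. The smallest unadjusted p (2.98e-05) belonged to the complement gene C3, which was scarcely detected, with means of 0.0938 CPM in controls and 0.337 in intruder libraries. At an unadjusted p below 0.05 there were 912 genes (5.34%), 568 of them higher in intruder libraries (3.32%) and 344 lower (2.01%). DESeq2 and limma voom, run on the same genes, also called 0. The measurement was tight: the median standard error of a log2 fold change was 0.0756, and for 84.4% of genes the 95% interval lay within 1.5-fold either way. In simulated counts with the depths of these libraries, 92.5% of genes changed by 1.5-fold were called. Of those changed by 1.25-fold, nearer to the size of most differences described here, 59.7% were called. The changed genes had a mean of at least 1 CPM and changed alike in every intruder library of 120 min. The shares therefore do not apply to genes that differed in only some intruder libraries.

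Of the 10 genes higher in intruder libraries with the smallest p, among genes with a mean of at least 1 CPM, 5 belong to a list of 24 chaperones and their regulators: Pdia4, Hspa5, Creld2, Hspb1 and Hspa1b. The others were P4ha1, Serpinh1, Slc5a3, Rab39 and Derl2. Of the 24 genes in that list, 21 had a higher mean in intruder libraries, against 48.9% of all genes, and 20 of them had an unadjusted p below 0.05, against 3.32% of all genes. The list's median log2 fold change was 0.20, against 0.00 over all genes tested. None of the 24 was called, and the list had been part of earlier work on these libraries, so its count is a description and not independent evidence. The excess came from 4 of the 6 intruder libraries, numbers 1, 3, 5 and 6. Library 2 lay at the control level and library 4 just above it.

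**Figure D1:**
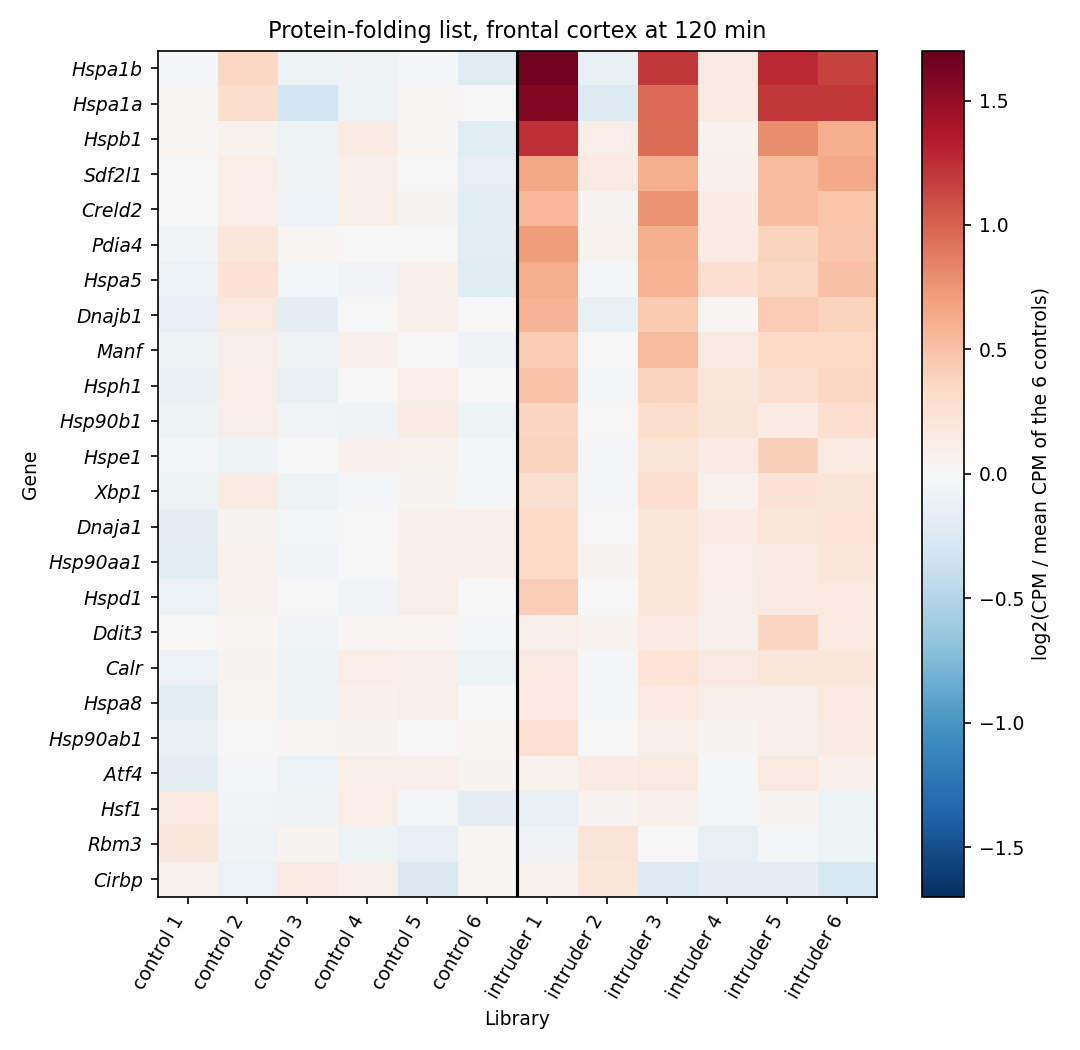
Each cell is the log2 ratio of a library's CPM to the mean CPM of the 6 controls, for the 24 genes of the protein-folding list (rows, ordered by log2 fold change) in the 12 frontal cortex libraries at 120 min (columns). Intruder libraries 1, 3, 5 and 6 are red from Hspa1b down to about Hspd1, intruder library 2 is near white, and the last rows, Hsf1, Rbm3 and Cirbp, show no such split.

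In the cytosol, the inducible Hsp70 gene Hspa1b (ENSMUSG00000090877) had the largest difference of the list. Control libraries ranged from 10.2 to 15.1 CPM with a median of 11.4. Intruder libraries 1 to 6 were at 36.7, 10.8, 27.2, 13.1, 28.3 and 26.1 CPM. Libraries 1, 3, 5 and 6 were thus above every control, 4 was inside the control range and 2 near its lower end, so the groups overlapped. Means were 11.8 ± 1.67 CPM for controls and 23.7 ± 9.84 for intruder libraries (SD, n = 6 each), and the fitted log2 fold change was 1.01 (SE 0.244; edgeR adjusted p 0.4). Its near-identical neighbour Hspa1a, whose reads can be split between both copies, ranged from 6.1 to 9.41 CPM in controls and was at 22.7, 6.49, 14.9, 8.49, 17.6 and 17.6 CPM in intruder libraries 1 to 6, so the same libraries were high and low.

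Hspb1, the small heat shock protein Hsp27, ranged from 5.38 to 6.7 CPM in controls (median 6.3) and from 6.38 to 14.5 CPM in intruder libraries (median 10), with a log2 fold change of 0.69 (SE 0.164; edgeR adjusted p 0.4). Here, too, libraries 2 and 4 were inside the control range and the other intruder libraries above it. 

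The Hsp40 co-chaperone Dnajb1 had a log2 fold change of 0.31, and Hsph1, the nucleotide exchange factor of Hsp70, one of 0.28. The abundant housekeeping chaperones showed small differences: 0.18 for Dnaja1, 0.17 for Hsp90aa1, 0.12 for Hspa8 and 0.10 for Hsp90ab1. The mitochondrial chaperonin pair Hspe1 and Hspd1 stood at 0.22 and 0.17. Each of the 8 genes in this paragraph had an unadjusted p below 0.05, the weakest being Hspa8 at 0.0357 and Hsp90ab1 at 0.0151. Hsf1, the factor that drives heat shock genes, was at 42.4 ± 3.44 CPM in controls and 42.1 ± 2.29 in intruder libraries (n = 6 each; log2 fold change -0.01).

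In the endoplasmic reticulum, Hspa5 (BiP, ENSMUSG00000026864) ranged from 311 to 425 CPM in controls with a median of 352. Intruder libraries 1 to 6 were at 550, 355, 540, 438, 459 and 506 CPM. All intruder libraries but number 2 exceeded the highest control. The log2 fold change was 0.40 (SE 0.094; edgeR adjusted p 0.4), or 1.32-fold with a 95% interval from 1.16 to 1.51. Pdia4, a protein disulfide isomerase, ranged from 44.7 to 57.1 CPM in controls and was at 82.7, 52.7, 76.7, 55.7, 65.9 and 69.4 CPM in intruder libraries 1 to 6 (log2 fold change 0.41, SE 0.0908). Sdf2l1, a BiP cofactor, ranged from 13.9 to 16.6 CPM in controls and from 16.1 to 24.2 in intruder libraries (log2 fold change 0.46, SE 0.121). Creld2, a folding factor of the same compartment, ranged from 14.6 to 18.1 and from 17.2 to 28.4 CPM (0.44, SE 0.105), and Manf, a secreted folding factor, from 52.4 to 59.2 and from 55.5 to 80.2 CPM (0.31, SE 0.0869).

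The other compartment members of the list differed less. Hsp90b1 (Grp94) had a log2 fold change of 0.23 and the calcium-binding chaperone Calr one of 0.15. Among the factors that run the unfolded protein response, Xbp1 was at 0.19, Ddit3 (CHOP) at 0.15 and Atf4 at 0.10, the last with an unadjusted p of 0.0798. Ddit3 was the list's only member whose groups did not overlap: controls lay between 19.7 and 20.8 CPM and intruder libraries between 21.3 and 26.2 CPM. Over all genes tested, 24 were higher in every intruder library than in every control (0.14%).

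The promoters of the endoplasmic reticulum genes are shown because the best known binding site of the unfolded protein response, the ER stress response element, can be read in them. It was searched on both strands as CCAAT followed by 9 bases of any kind and CCACG, in the 250 bases before each gene's start in RefSeq's annotation of GRCm38.p6. It was present in 0.113% of 32851 promoters, which belong to 27025 gene symbols. Among the 18 list members with a promoter there, counted by gene, it was present in those of Hspa5, Hsp90b1, Calr and Creld2. The list was built with genes of that response in it, so this is a description and not a test. Capitals mark the element. The stretches are chr2:34771995-34772073 (plus strand) for Hspa5, chr15:88819490-88819568 (plus strand) for Creld2, chr8:84847045-84847123 (minus strand) for Calr and chr10:86705503-86705686 (minus strand, with the element at both ends) for Hsp90b1.
Hspa5: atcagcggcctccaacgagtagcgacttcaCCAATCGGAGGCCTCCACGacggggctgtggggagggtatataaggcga
Creld2: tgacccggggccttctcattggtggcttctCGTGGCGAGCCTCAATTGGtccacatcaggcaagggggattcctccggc
Calr: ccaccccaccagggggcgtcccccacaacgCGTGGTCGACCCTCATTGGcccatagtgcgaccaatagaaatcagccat
Hsp90b1: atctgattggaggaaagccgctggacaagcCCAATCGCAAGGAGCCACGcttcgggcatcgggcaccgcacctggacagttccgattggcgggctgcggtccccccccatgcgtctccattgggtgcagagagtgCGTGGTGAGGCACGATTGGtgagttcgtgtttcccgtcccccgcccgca

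The elements carry the letters forward in Hspa5 and reversed in Creld2 and Calr, and in both orientations in Hsp90b1. Pdia4 and Sdf2l1, with log2 fold changes as large as that of Hspa5, had no match to these letters in the same window. The element of heat shock factor, searched on both strands as GAA, TTC and GAA with 2 bases of any kind between each, was found in 0.466% of promoters and in the window that Hspe1 and Hspd1 share between their starts (chr1:55088029-55088106, shown on the strand of Hspe1, where matches on both strands overlap). Neither Hspa1a, Hspa1b nor Hspb1 matched within 250 bases.
Hspe1: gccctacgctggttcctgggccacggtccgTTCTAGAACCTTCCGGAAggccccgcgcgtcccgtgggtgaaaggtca

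The RNA-binding proteins Cirbp and Rbm3, which are known to be induced by mild cold, completed the list. Cirbp was at 39.5, 43.3, 32.3, 33.9, 34 and 31.4 CPM in intruder libraries 1 to 6 and between 31.8 and 41.5 in controls (log2 fold change -0.08). Rbm3 was at 81.2, 98.4, 84.6, 77.7, 82.7 and 80.4 CPM, with controls between 76.9 and 96.3 (-0.01). Both genes were highest, among intruder libraries, in library 2, where the chaperones were lowest. Neither had an unadjusted p below 0.298.

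Outside the list, the genes with the smallest p among those higher in intruder libraries included several with related work. Serpinh1, the collagen chaperone Hsp47 (ENSMUSG00000070436), ranged from 15.1 to 19 CPM in controls and was at 31.4, 18.2, 29.7, 19, 25.7 and 24.5 CPM in intruder libraries 1 to 6 (log2 fold change 0.48, SE 0.112; edgeR adjusted p 0.4). P4ha1, a subunit of the enzyme that hydroxylates collagen prolines, ranged from 59.4 to 67.5 CPM in controls and was at 93.7, 62.6, 85.8, 65.4, 80.7 and 82.3 CPM (0.32, SE 0.0696). Slc5a3, which carries the osmolyte myo-inositol into cells, ranged from 28.9 to 38.7 CPM in controls and was at 64.2, 31.4, 48.5, 40.4, 44.9 and 50 CPM (0.46, SE 0.111). Derl2, which helps return misfolded proteins to the cytosol for destruction, ranged from 26.9 to 30.1 CPM in controls and from 29 to 35.8 in intruder libraries (0.19, SE 0.048). Rab39, a small GTPase of vesicle traffic, was at 1.51 ± 0.264 CPM in controls and 2.36 ± 0.703 in intruder libraries (0.64, SE 0.159). In each of these genes library 2 was inside the control range and libraries 1, 3, 5 and 6 were above it.

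**Figure D2:**
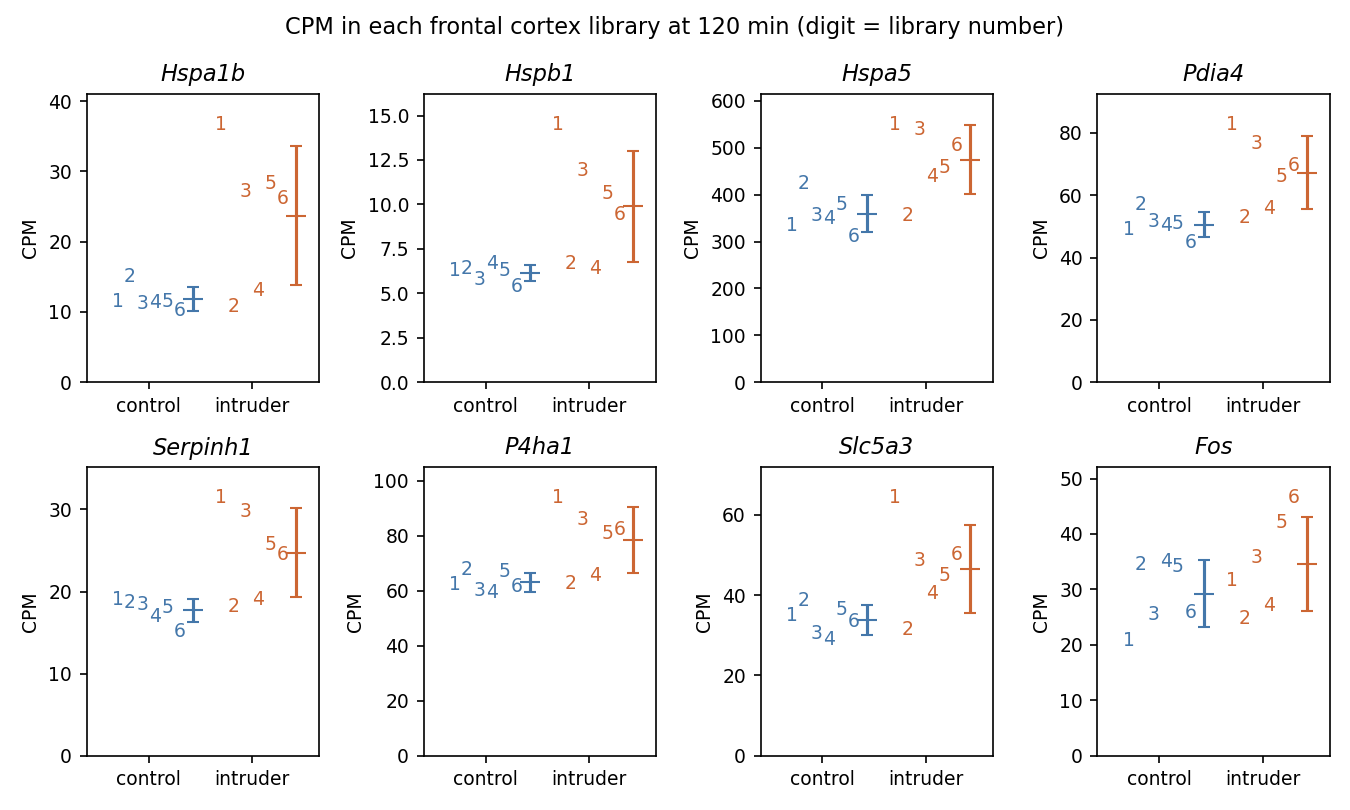
CPM of 8 genes in each frontal cortex library at 120 min; digits are library numbers, blue for controls and orange for intruder libraries, and the bars beside them are the mean and SD of 6 libraries. In the 7 genes other than Fos, intruder library 2 sits among the controls and libraries 1, 3, 5 and 6 above them; for Fos the groups overlap over most of their range.

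Which libraries carried the difference was counted gene by gene. Of the 24 list members, 20 in library 1, 21 in library 3, 21 in library 5 and 20 in library 6 were above all 6 controls. The count was 11 in library 4 and 5 in library 2. Over all 17091 genes the share above every control was 23.5% in library 1 and between 10.4% and 13.1% in the other intruder libraries.

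Because library 2 lay apart from the others of its group, the comparison was repeated without each library in turn. Without intruder library 2, 20 of 17089 genes were called, and 1298 (7.6%) had an unadjusted p below 0.05. P4ha1, Slc5a3, Hspa5 and Pdia4 had the smallest adjusted p (0.0341 each). Among the rest were Serpinh1, Rab39, Derl2, Hspa1b, Creld2 and Hspb1. Hsph1 and Dnajb1, named after their values were seen, were also among them, so that 7 of the 24 list members were called. Ahsa2 and Chordc1, which work with Hsp90, and P4ha2, a second form of the prolyl hydroxylase subunit, were called higher as well. Endov and Pstk, which acts in making selenocysteine transfer RNA, were the genes called lower. With 5 intruder libraries the log2 fold change of Hspa5 was 0.47 (edgeR adjusted p 0.0341) and that of Hspa1b 1.16 (0.0356). That was the only one of 12 such repeats with a call, and it removes the intruder library that was lowest in most of these genes. Without library 1, the one highest in markers of other tissues, 0 genes were called and 496 of 17067 (2.91%) had an unadjusted p below 0.05. Among those 496 were 18 of the 24 list members, each with a higher mean, and the list's median log2 fold change was 0.18.

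By the labels, 10 of the 12 animal numbers have libraries of frontal cortex, amygdala and hypothalamus, and libraries are followed here by that number. The mention of pooled RNA in the design text applies here too, so a number is called an animal only as the labels do. Hspa1b was high in the same animals there. Hspa1b in amygdala was at 31, 8.96, 26.7, 14.5 and 29.1 CPM in intruder animals 1, 2, 3, 4 and 6, with controls from 8.25 to 15.9. In hypothalamus it was at 51, 9.84, 35.6, 12.4 and 33.7 CPM, with controls from 7.61 to 15.1. Animals 1, 3 and 6 were above every control in all regions, and animals 2 and 4 were within the control range in all of them. Among controls, animal 2 was the highest in each region, at 15.1, 15.9 and 15.1 CPM in frontal cortex, amygdala and hypothalamus.

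Over the list animals 1, 3 and 6 were again the highest, and animal 4 came between them and the controls. In amygdala 18, 20 and 20 of the 24 genes in animals 1, 3 and 6 were above all controls, against 11 in animal 4 and 0 in animal 2. In hypothalamus the counts were 23, 19 and 18, against 12 and 0. Animal 2 had 5 of 24 genes below all controls in amygdala, against 15.3% of all genes, and 8 of 24 in hypothalamus, against 14.4%. Over all 17625 genes of those regions, between 14.1% and 24% in amygdala and between 12% and 29.9% in hypothalamus were above every control in a given intruder library. The median over the 24 genes of the ratio to the region's control mean was 1.3, 1.14 and 1.4 in animal 1 (frontal cortex, amygdala, hypothalamus), 1.19, 1.31 and 1.18 in animal 3, 1.17, 1.23 and 1.13 in animal 6, 1.08, 1.06 and 1.08 in animal 4, and 1, 0.98 and 0.967 in animal 2. The highest control was at 1.04 in each region, so animal 4 was above the controls on this measure, unlike for Hspa1b. Libraries of different regions from an animal are separate tissue samples but not separate animals, so the regions do not add replicates. Serpinh1 was an exception to the shared order, with animal 4 at 33.2 CPM in amygdala, above animals 1 and 3 at 27.4 and 26.5, and in hypothalamus with animals 3 and 6 inside the control range.

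**Figure D3:**
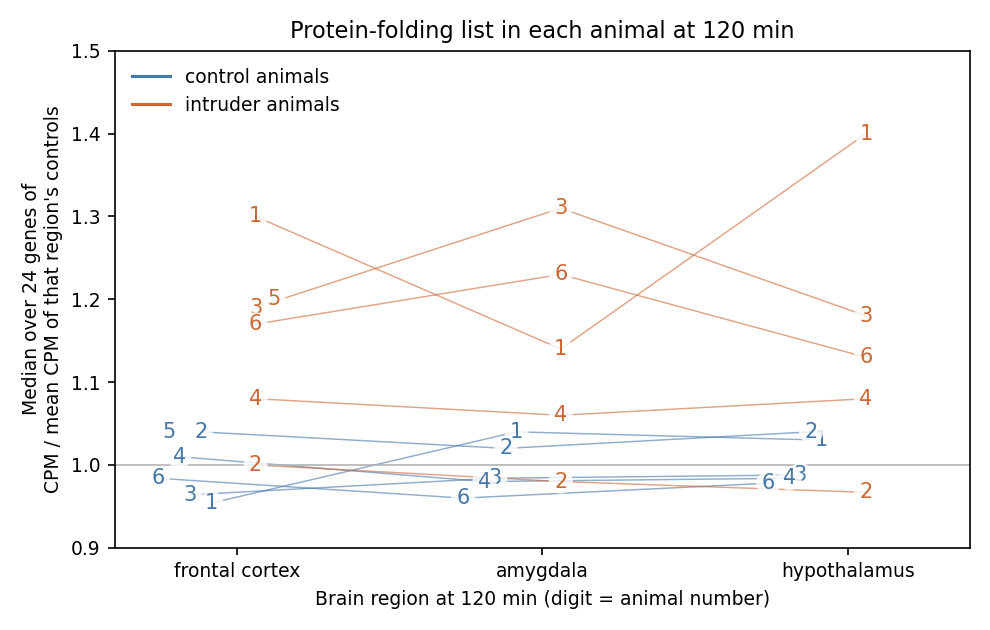
Median over the 24 protein-folding genes of CPM divided by the mean CPM of the same region's controls (y axis), in frontal cortex, amygdala and hypothalamus at 120 min; digits are animal numbers, blue for controls and orange for intruder animals, and lines join an animal's libraries. Intruder animals 1, 3 and 6 lie above all controls in each region, from 1.13 to 1.4; intruder animal 4 lies just above them (1.06 to 1.08, highest control 1.04) and intruder animal 2 between 0.967 and 1.

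The size of the intruder effect was then compared between regions. In the fit of all 120 min libraries, the log2 fold change of Hspa5 was 0.40 in frontal cortex, 0.34 in amygdala and 0.18 in hypothalamus, and that of Hspa1b 1.00, 1.03 and 1.49. That fit has no term for the animal. The difference between frontal cortex and hypothalamus was 0.22 (SE 0.143) for Hspa5 and -0.48 (SE 0.491) for Hspa1b.

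With the animal as a block the same differences were 0.24 (SE 0.0766; edgeR adjusted p 0.862) and -0.48 (SE 0.14; 0.764), with unadjusted p of 0.00484 and 0.00255. Dnajb1 (-0.26, SE 0.0804), Pdia4 (0.17, SE 0.063) and Hsp90b1 (0.16, SE 0.0684) were the other list members with an unadjusted p below 0.05, so 5 of 24 passed that mark against 4.89% of all genes, and none was called. These differences did not share a sign. Among the members that did not pass, Hspb1 was at 0.34 (SE 0.23), Sdf2l1 at 0.01 (SE 0.102) and Xbp1 at 0.00 (SE 0.0677). Against amygdala 2 of 24 passed, Creld2 (0.29, SE 0.103) and Hsf1 (0.15, SE 0.0658), with 4.43% of all genes. For P4ha1 the difference was -0.06 (SE 0.0617) against amygdala and -0.02 (SE 0.0616) against hypothalamus.

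Across 17625 genes and without the block, 0 differed between frontal cortex and amygdala (0%) and 0 between frontal cortex and hypothalamus (0%) by edgeR at an adjusted p below 0.05, with 874 (4.96%) and 831 (4.71%) at an unadjusted p below 0.05. With the block the counts called were also 0 and 0. In each direction (larger, then smaller, in frontal cortex) the genes with the smallest p were 0610037L13Rik (difference 0.31, SE 0.0631; edgeR adjusted p 0.302) and Lrrc58 (-0.29, SE 0.0654; 0.55) against amygdala, and Abcg2, an efflux transporter of brain capillaries (0.50, SE 0.102; 0.31), and S1pr1, a lipid receptor (-0.36, SE 0.0891; 0.554), against hypothalamus.

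DESeq2, fitted without a term for the animal, called 3 and 6 genes in those comparisons. Among them were the vascular genes Ly6c1, Ocln, Abcg2, Abcb1a and Rgs5, all but Abcg2 named after their values were seen. Alongside, the 17 endothelial markers had a median log2 fold change of 0.05 in frontal cortex, -0.36 in amygdala and -0.47 in hypothalamus; their part in these differences was not tested.

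Against the earlier times in frontal cortex, the chaperone list was near or below 0. Its median log2 fold change was -0.09 at 30 min and 0.01 at 60 min, against 0.20 at 120 min. Sdf2l1 was at 16.1 ± 2.5 CPM in controls and 11.6 ± 1.08 in intruder libraries at 30 min (n = 5 each), at 19.1 ± 2.78 and 19.9 ± 4.21 at 60 min (n = 5 each), and at 15.3 ± 0.995 and 21.1 ± 3.72 at 120 min (n = 6 each). The intruder effect on it was 0.94 higher on the log2 scale at 120 than at 30 min (SE 0.181; edgeR adjusted p 0.137), the smallest p of that comparison. The same difference was 0.67 for Pdia4 (SE 0.135; 0.155), 0.53 for P4ha1 (SE 0.103; 0.137), 0.60 for Hspa5 (SE 0.139; 0.352) and 1.14 for Hspa1b (SE 0.36; 0.609). Part of these differences lay at 30 min, where Sdf2l1, Pdia4 and P4ha1 had log2 fold changes of -0.48, -0.25 and -0.21.

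By edgeR 0 of 17091 genes differed in intruder effect between 120 and 30 min (0%), and 1025 (6%) had an unadjusted p below 0.05. With DESeq2 the called genes were 3, Sdf2l1 (adjusted p 0.00488), P4ha1 (0.00957) and Pdia4 (0.0104). These genes were also called by edgeR without intruder library 2 or without intruder library 4 of 120 min, and Sdf2l1 alone without control library 1 of 30 min. Toward lower values the smallest p belonged to Tcta (-0.30, SE 0.0759; edgeR adjusted p 0.41). The columns of all 30 min libraries carry another tag in the deposited table than those of 60 and 120 min, so whatever that tag stands for cannot be told apart from time here.

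Between 120 and 60 min 0 genes differed in intruder effect by edgeR (0%), and by DESeq2 as well, with 797 at an unadjusted p below 0.05 (4.66%). The smallest p in each direction belonged to N4bp3 (0.53, SE 0.121; edgeR adjusted p 0.569) and Myom3, an M-band protein of muscle (-0.68, SE 0.134; 0.281). For Hspa5 the difference was 0.37 (SE 0.139) and for P4ha1 0.35 (SE 0.103; adjusted p 0.869).

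Most immediate-early genes had slightly higher means, with wide spread. Of 24 tested, 23 had a higher mean in intruder libraries, against 48.9% of all genes. None had an unadjusted p below 0.05, against 5.34% of all genes, and the median log2 fold change was 0.12. That median was 0.07 without control library 3 or without intruder library 3, and 19 of 24 were higher without control library 1. Fos ranged from 20.7 to 35 CPM in controls (median 30) and was at 31.6, 24.7, 35.8, 27.1, 42 and 46.5 CPM in intruder libraries 1 to 6 (0.24, 95% interval -0.19 to 0.67). Arc, a synaptic plasticity effector, ranged from 198 to 428 CPM in controls and from 297 to 561 in intruder libraries (0.42, SE 0.229; unadjusted p from edgeR 0.0753). Libraries 2 and 4 were the lowest intruder libraries in both genes, and the groups overlapped in both. Egr2 stood at 0.36, Nr4a3 at 0.27, Nr4a1 at 0.10 and Npas4, a factor induced by calcium entry alone, at 0.04.

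Genes of the slower activity program, 25 tested, had 17 higher means, a median of 0.06 (0.02 without intruder library 3) and 0 with an unadjusted p below 0.05. Bdnf, the neurotrophin of that program, was at 37.4 ± 5.98 CPM in controls and 38.9 ± 4.55 in intruder libraries. The neuropeptide precursor Scg2 (0.22) and the cAMP-responsive repressor Crem (0.13) had the smallest p. The angiogenic factor Vegfa, which belongs to a separate list of 14 genes of growth factors and their receptors, stood at 0.11 with an unadjusted p of 0.0473, the only one of that list below 0.05 (7.14%, against 5.34% of all genes); in 7 of 12 fits with a library left out, 0 of the list were higher at that mark.

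Stress hormone and clock genes were close to the controls. Of 21 glucocorticoid-responsive genes, 10 had higher and 11 lower means, with a median of 0.00. Pdk4, which restrains pyruvate entry into mitochondria, was the only one with an unadjusted p below 0.05 (0.20, SE 0.0842), which is 4.76% of the list against 5.34% of all genes. Library 1 was its highest at 14.7 CPM, and in 5 of 12 fits with a library left out (control 3 or 6, intruder 1, 3 or 6) 0 members were higher at an unadjusted p below 0.05. Fkbp5, the chaperone that dampens the glucocorticoid receptor, was at 59.1 ± 7.58 CPM in controls and 50.5 ± 3.86 in intruder libraries (-0.22, SE 0.151). Sgk1 stood at 0.08, Ddit4 at 0.18 and Per1 at 0.04. Fkbp4, the Hsp90 co-chaperone that carries the same receptor to the nucleus, belongs to a separate list of steroid receptors and their partners. It was at 120 ± 4.54 CPM in controls and 135 ± 10.5 in intruder libraries (0.17, SE 0.0568, unadjusted p from edgeR 0.00436). Of the 12 genes of that list tested, it was the only one below 0.05 (8.33%, against 5.34% of all genes). Of 19 clock genes 1 had an unadjusted p below 0.05 (5.26%, near the 5.34% of all genes), Per3 (-0.15), and 0 did without control library 1 or 2 or intruder library 1 or 5; Dbp stood at -0.10.

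Most synaptic genes tested had slightly lower means. Of 28 vesicle and scaffold genes, 26 had a lower mean in intruder libraries, against 51.1% of all genes, with a median of -0.05. At an unadjusted p below 0.05 there was 1 (3.57%, against 5.34% of all genes). Complexin 2 (Cplx2), which clamps vesicles before release, ranged from 1330 to 1460 CPM in controls and was at 1110, 1280, 1250, 1360, 1380 and 1250 CPM in intruder libraries 1 to 6 (-0.12, SE 0.044; unadjusted p from edgeR 0.00877). Dlg4 (PSD-95) stood at -0.07 and Camk2a at -0.12. Library 1 was the lowest in all 3 of these genes. Without it 25 of 28 were lower and the median was -0.03.

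Genes of energy metabolism were examined because the series' title names a metabolic response. The 79 nuclear genes of oxidative phosphorylation split into 37 higher and 42 lower means around a median of 0.00, and 1 had an unadjusted p below 0.05 (Ndufb2, a complex I subunit, 0.11), a share of 1.27% against 5.34% of all genes. The split depended on single libraries, with 54 higher means without control library 4 and 23 without control library 2, while the median stayed between -0.02 and 0.02 whichever library was left out. Of 12 tested genes of mitochondrial DNA, 11 had lower means with a median of -0.04, but 6 did without control library 1 and 7 without intruder library 6. Esrra, a nuclear receptor that drives mitochondrial genes, was at 55.9 ± 1.22 CPM in controls and 54.4 ± 4.98 in intruder libraries (95% interval of the log2 fold change -0.16 to 0.08). Its coactivator Ppargc1a was at 54.2 ± 3.53 and 54.3 ± 2.55 CPM (-0.14 to 0.15). Among 21 regulators of mitochondrial biogenesis the median was -0.03.

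**Figure D4:**
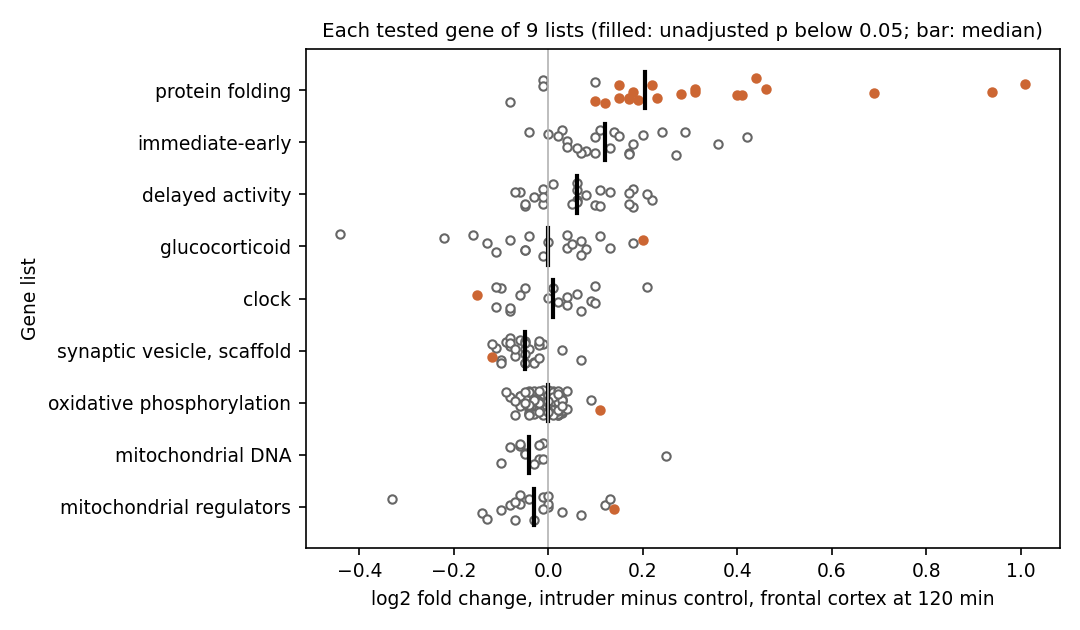
Log2 fold change, intruder minus control, of each tested gene of 9 gene lists in frontal cortex at 120 min; filled points have an unadjusted p below 0.05, open points do not, and black bars are list medians (vertical position within a row is random). The protein-folding list lies to the right, with a median of 0.20 and 20 filled points; the oxidative phosphorylation and glucocorticoid lists are centred on 0.00.

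The leading genes with lower means differed by small folds. The 10 with the smallest p had log2 fold changes between -0.14 and -0.39, each with an edgeR adjusted p of 0.4 or 0.44. The uncharacterized transcript 6330418K02Rik ranged from 2.24 to 2.91 CPM in controls and from 1.97 to 2.2 in intruder libraries (log2 fold change -0.29). Elac2, which trims the ends of transfer RNAs, ranged from 32.6 to 36.1 and from 28.4 to 31.9 CPM (-0.14, SE 0.038). The groups did not overlap in either gene. Endov, an endonuclease for inosine in RNA, was at 29.8, 35.4, 29.9, 32.6, 31 and 29.4 CPM in intruder libraries 1 to 6, with controls from 33.6 to 36, so that it was highest in the libraries where the chaperones were lowest. The others were Arfgap1 and Slc9a8, which act at the Golgi and its vesicles, Gstz1, an enzyme of tyrosine breakdown, the helicase gene Ighmbp2, Myom3, Gm12655 and A630052C17Rik. Of these, Arfgap1 (-0.14), Slc9a8 (-0.18), Ighmbp2 (-0.23) and Myom3 (-0.32) were also highest in library 2 among intruder libraries.

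Separation of the groups, with every intruder library above or below every control, was seen in 44 genes of 17091 (0.257%), 24 higher (0.14%) and 20 lower (0.117%). Among those with a mean of at least 1 CPM, the largest differences upward were in Slc52a3, a riboflavin transporter (1.99 to 2.3 CPM in controls, 2.4 to 3.18 in intruder libraries), Ormdl2, a brake on sphingolipid synthesis (4.41 to 6.16 and 6.18 to 7.55), Saxo2, a microtubule-associated protein (2.98 to 3.33 and 3.37 to 4.24), Snrnp48, a minor spliceosome component (12 to 14.4 and 14.4 to 15.2, which meet only by rounding) and 1500009L16Rik (10 to 11.7 and 12 to 12.7). Downward they were in Tmem40 (1.64 to 2.28 and 1.23 to 1.6), 6330418K02Rik, A730060N03Rik (2.4 to 2.74 and 1.98 to 2.23), E430018J23Rik (4.53 to 4.94 and 3.26 to 4.4) and the aldehyde dehydrogenase relative Aldh16a1 (6.13 to 6.5 and 5.34 to 5.75). The gap between the groups was narrow in each, and none had an adjusted p below 0.4 by edgeR.

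Several of the largest fold changes came mostly from 1 library. Oxytocin (Oxt), the peptide of magnocellular hypothalamic neurons, was at 14.7 CPM in intruder library 1 and at 0.12 to 0.225 CPM in the other intruder libraries, with controls from 0.155 to 0.264. Its fitted log2 fold change was 3.58 (SE 0.931; edgeR adjusted p 0.4) and -0.33 without library 1. Vasopressin (Avp) was at 7.85 CPM in library 1 and at most 0.518 in any other, and galanin (Gal) at 4.18 and at most 0.172; without library 1 their log2 fold changes were -0.18 and -0.12. Irs4 (11.5 CPM), Trh (11.3 CPM) and the thalamic factors Lhx9 (5.62 CPM) and Tcf7l2 (23.4 CPM) were each highest in that library. So were the choroid plexus factor Otx2 (3.34 CPM) and Ttr (201 CPM), the choroid plexus gene of transthyretin. Without it the log2 fold change was 0.11 for Irs4, 0.57 for Trh, 0.54 for Lhx9 and -0.04 for Tcf7l2. For Otx2 it went from 2.68 to 1.02 and for Ttr from 2.76 to 1.67, and Ttr was also at 67.3 CPM in intruder library 5 and 52.5 in library 2, with controls from 2.86 to 28. Crh, a peptide of cortical interneurons as well as of hypothalamus, was at 6.32 ± 1.21 CPM in controls and 6.56 ± 0.868 in intruder libraries.

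Whole marker lists were high in that library too. The 15 hypothalamic markers summed to 125 CPM in library 1, to 10.3 to 18.7 in the other intruder libraries and to 9.09 to 22.6 in controls. The 10 thalamic markers summed to 300 CPM, against 73.9 to 95.2 and 67 to 86, and the 15 markers of choroid plexus and meninges to 715 CPM, against 329 to 442 and 334 to 403. Genes of motile cilia, a list added after these values were seen, summed to 43.7 CPM, against 11.6 to 15.4 and 10.8 to 13.5. Striatal markers varied widely in both groups, from 303 to 1260 CPM in controls and from 353 to 1150 in intruder libraries, with a median log2 fold change of -0.05 whose sign depended on single libraries: it was 0.23 without control library 1 and -0.25 without intruder library 5. Intruder libraries 3, 5 and 6 had hypothalamic sums of 14.8 to 18.7 CPM and thalamic sums of 78.6 to 95.2 CPM, and 20 or 21 of their 24 folding genes were above all controls. They were not free of such markers: libraries 3 and 6 were above every control in thalamic markers (87.3 and 95.2 against at most 86 CPM), library 6 in olfactory bulb markers (87 against 69.2) and library 5 in choroid plexus and meninges (442 against 403) and cilia (15.4 against 13.5). Library 2, with folding genes at the control level, was above every control in the last 2 lists as well (432 and 14.8 CPM). The part of these markers in the folding genes' values was not tested.

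**Figure D5:**
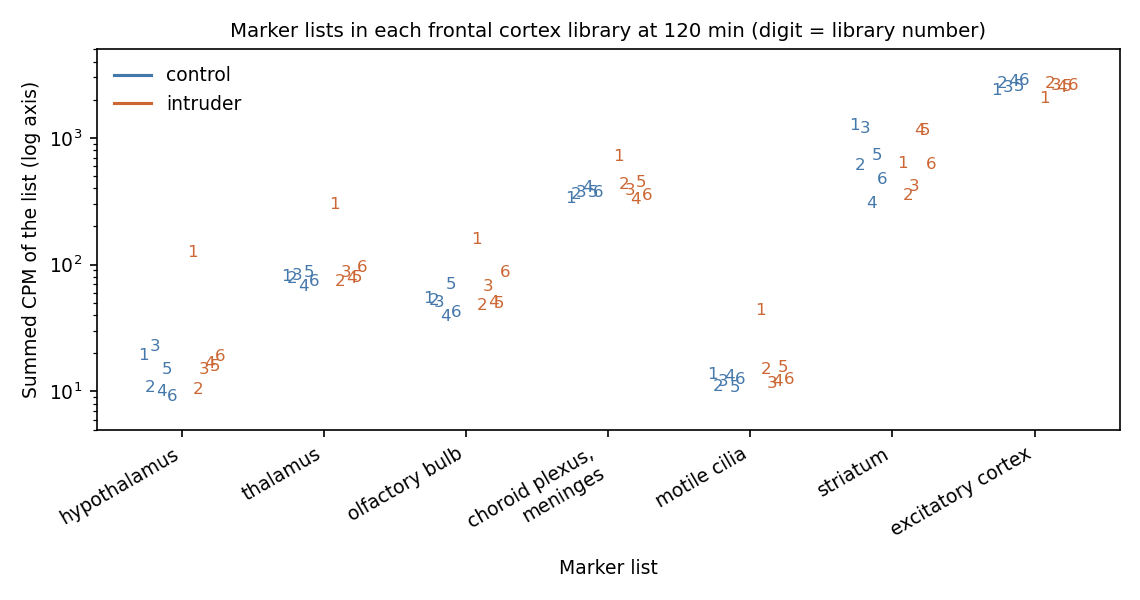
Summed CPM of 7 marker lists (log axis) in each frontal cortex library at 120 min; digits are library numbers, blue for controls and orange for intruder libraries. Intruder library 1 stands alone for hypothalamus (125 CPM), thalamus (300 CPM) and motile cilia (43.7 CPM), while striatal markers spread over 303 to 1260 CPM within the controls.

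Of the cell types that make up cortex, the 16 oligodendrocyte markers all had higher means in intruder libraries (median log2 fold change 0.13), 0 of them at an unadjusted p below 0.05. Leaving out a library moved that median between 0.04, without intruder library 1, where 11 of 16 were higher, and 0.21, without control library 1. Median log2 fold changes were -0.03 for excitatory neurons, 0.07 for interneurons, -0.04 for astrocytes, -0.05 for microglia and 0.05 for endothelium. Leaving out a library gave, in that order, -0.06 to 0.01, 0.03 to 0.09, -0.06 to -0.01, -0.08 to -0.02 and 0.01 to 0.09. Astrocytes, microglia and endothelium had 0 of 15, 0 of 15 and 0 of 17 markers at an unadjusted p below 0.05. The 5 blood markers tested, mostly haemoglobin genes, all had lower means, with a median of -0.22 and 0 at an unadjusted p below 0.05. They summed to 96.4 to 145 CPM in controls and 80.5 to 128 in intruder libraries, and without intruder library 3, the highest of its group, 4 of 5 had an unadjusted p below 0.05 (4.97% of all genes in that fit). Leaving out any other library gave 0 or 1 of 5. The 7 cerebellar markers tested also had lower means, with a median of -0.59 that was -0.07 without control library 1.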

How the data were processed

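The deposited table holds raw counts of reads per gene, with 37991 gene identifiers and 90 library columns, all matched to labelled samples. Per the submitters' processing notes, which give no order or role, CASAVA 1.8.2, TopHat2 2.0.8, HTSeq 0.6.1, edgeR 3.2.4 and R 3.0.0 were used with the mouse build NCBIM37. Libraries were stranded, poly(A)-selected and single-end, per the labels' protocols; the strand setting of counting is not given in the sources used here, so overlapping genes are uncertain. The 5 summary rows of the counting (unassigned reads) were left out of library sizes and tests.

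Counts were tested with edgeR 4.0.16 (quasi-likelihood F test, TMM scaling, filterByExpr) in R 4.3.3, in one fit of the 6 frontal cortex groups (32 libraries) or, for differences between regions, one fit of all 120 min groups. P-values were Benjamini-Hochberg adjusted over all genes tested, with a threshold of 0.05. CPM are counts scaled by TMM library sizes; those of amygdala and hypothalamus were scaled within the region. Nothing says that libraries come from separate pools, so p-values measure the spread between these libraries. No 2 libraries agreed within sampling noise.

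Genes named by rule had a symbol and a mean of at least 1 CPM and were the 10 with the smallest p in each direction and the 5 non-overlapping ones with the largest fold change in each direction. To these came up to 5 from each leave-one-out fit with calls, up to 3 of each list with the smallest p, 16 genes named in any case, and the leading gene in each direction of each difference test. Other genes were chosen after their values were seen. The comparison and the lists were chosen with earlier results of these data known. Alternatives were DESeq2 1.42.0, limma voom (3.58.1), other scalings and filters, blocks, and leaving out each library. The method was tested on simulated counts for 16985 genes.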

Additional observations from a re-analysis of the deposited data

Results flagged for a closer look

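In 232 groups of 6 libraries tested for a single library far from the rest (Dixon's criterion), 30 values stood out, in 8 libraries. Chance gives such a value in about 1 in 20 groups, and values of genes from the same tissue are not separate events.

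Intruder library 1 held 18 of the 30. It was the highest of its group in Oxt (14.7 CPM), Avp (7.85 CPM), Gal (4.18 CPM), Trh (11.3 CPM), Irs4 (11.5 CPM), Lhx9 (5.62 CPM), Tcf7l2 (23.4 CPM), Otx2 (3.34 CPM), Ttr (201 CPM), the myelin-associated gene Ermn (78.8 CPM) and Ormdl2 (7.55 CPM). It was also the highest in summed markers of hypothalamus (125 CPM), thalamus (300 CPM), olfactory bulb (159 CPM), choroid plexus and meninges (715 CPM) and motile cilia (43.7 CPM). It was the lowest in summed synaptic genes (20600 CPM) and in markers of excitatory cortical neurons (2060 CPM).

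Among folding genes, intruder library 2 was the lowest of its group in Calr (386 CPM, others 434 to 459) and the highest in Rbm3 (98.4 CPM, others 77.7 to 84.6). Intruder library 5 was the highest in Ddit3 (26.2 CPM). Control library 2 was the highest control in Hspa1b (15.1 CPM, others 10.2 to 11.5), and control library 1 the lowest in Hsp90ab1 (1260 CPM).

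The remaining values were Elac2 in control library 4 (36.1 CPM), A630052C17Rik in intruder library 4 (5.24 CPM), Avp in control library 3 (0.518 CPM), Ttr in control library 4 (28 CPM) and the cerebellar gene Pcp2 in control library 1 (1.55 CPM, others at most 0.259). Control library 1 had the fewest reads assigned to genes (38.6 M, others 49.2 to 53.8 M), and control library 4 the highest share of ambiguous reads (0.719%).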

How the results depend on the processing

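The count of 0 genes called at 120 min held under every alternative run but one: leaving out each library gave 0 to 20, the 20 without intruder library 2. Unadjusted calls went from 912 to 496 without intruder library 1. For the difference from 30 min, DESeq2 called 3 genes and leaving out a library gave 0 to 3. For the differences from amygdala and hypothalamus, DESeq2 without a term for the animal called 3 and 6. The folding list kept a median between 0.17 and 0.24, with 13 to 21 members higher at an unadjusted p below 0.05, the fewest with the second index as a block. The share of all genes at that mark, in either direction, ran from 2.91% without intruder library 1 to 7.61% with that block. A block for the leading index could not be fitted, since it is the same split as condition. Replicate numbers did not pair the samples: same-numbered libraries had correlations of -0.284 to 0.177, and 1 of 6 correlated best with its own number. With the replicate block 0 genes were called, with 770 unadjusted calls, and the folding median was 0.20.

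Median log2 fold changes of other-tissue markers moved. Hypothalamus (1.34) was 0.62 with limma voom, 0.70 with the replicate block and -0.14 to 1.53 leaving out a library. Thalamus (0.76) was 0.37 with the block and 0.08 to 0.90; choroid plexus and meninges (0.35) was 0.05 to 0.58. Cerebellum (-0.59) was -0.29 with voom, -0.18 in the 12 libraries alone and -0.84 to -0.07. Cilia (0.89) were 0.51 with voom, 0.58 with the block, 0.46 in the 12 libraries alone and 0.17 to 1.09. The lowest values for hypothalamus, thalamus, choroid plexus and cilia were those without intruder library 1. Striatum (-0.05) ranged from -0.25 to 0.23 leaving out a library, immediate-early genes (0.12) from 0.07 to 0.16 and the slower activity program (0.06) from 0.02 to 0.09. The cause of the other moves was not tested.

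Named genes kept direction and side of the threshold in all 513 pairings of a gene with an alternative other than leaving out a library. Leaving out a library reversed genes near 0: Hsf1 (-0.03 to 0.03), Rbm3 (-0.06 to 0.03), Npas4 (-0.02 to 0.11), Bdnf (0 to 0.11), Sgk1 (-0.03 to 0.16), Per1 (-0.03 to 0.10), Esrra (-0.06 to 0.01), Ppargc1a (-0.03 to 0.03) and Crh (0 to 0.12). It also reversed Oxt (-0.33 to 3.83), Avp (-0.18 to 2.69), Gal (-0.12 to 3.53) and Tcf7l2 (-0.04 to 0.90), each without intruder library 1. Of the library measures, group medians gave a difference, intruder minus control, of -0.784 M assigned reads, 0.151 percentage points of reads outside genes and 0.00243 of multiply aligned reads, opposite to the means. Leaving out a library gave -0.149 to 0.218 for reads outside genes, -0.00792 to 0.00116 for ambiguous, -0.118 to 0.00908 for multiply aligned and -0.239 to 0.0687 for mitochondrial reads. At these depths 95.5% of genes had a 95% interval within 2-fold, so smaller changes in weakly expressed genes could go undetected.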
